A study of Zea mays with 9 samples.

Results

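Gibberellins are diterpenoid hormones that promote cell elongation and division, and their level in a tissue is set largely by a small group of oxidases. Gibberellin oxidases of the GA20ox class carry out successive oxidations that give the precursors of the active hormone, and those of the GA3ox class, also called gibberellin 3-beta-dioxygenases, convert these precursors into bioactive forms. The GA2ox enzymes deactivate both, and DELLA proteins are nuclear repressors of growth that are degraded once a gibberellin has bound its GID1 receptor. In maize, loss of the GA3ox gene Dwarf1 gives dwarf plants, as do dominant mutations of the DELLA genes d8 and d9.

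The 10 transcripts described here were the spots of these enzymes and of d8 and d9 among the 39372 transcripts on the array. They were chosen by gene identifier and known role: 3 GA20ox genes, 2 GA3ox genes, the 3-beta-dioxygenase that the study listed among its hormone-related transcripts, 2 GA2ox genes, and the 2 DELLA genes. Each was represented by 1 spot per array, and a gene identifier stands here for its first transcript model (AC203966.5_FGT005 is itself a transcript). The gene table used here held an entry for 8 of the 10. The 3-beta-dioxygenase GRMZM2G046669 and the GA2ox transcript GRMZM2G022679 were picked by the study for their values on these same arrays, so their differences from N are not independent evidence of a direction.

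Seedlings of the maize hybrid P0423 were 4 days old at the start of treatment. Their roots were collected after 3 days in a diluted nutrient solution containing 1 of 3 nitrogen sources. Seedlings received a protein hydrolysate of animal origin, made up mostly of peptides (Bio), a mixture of free amino acids imitating the composition of that hydrolysate (Aa), or inorganic nitrogen as NH4H2PO4 (N), each at 11.3 mg per litre of total N. All 9 samples received added nitrogen, so every comparison is between nitrogen sources as supplied. NH4H2PO4 also supplies phosphate, and no matching of phosphate in the other treatments is described. The part of phosphate in the differences from N was not tested. Each treatment had 3 independent biological replicates, each a pool of roots from 24 seedlings, hybridised to 1 one-colour array. Whole roots were sampled, so fewer cells of a type and less RNA per cell cannot be told apart.

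Levels are given as log2 of the processed spot intensity minus log2 of the 75th percentile of the transcripts on that array, so that 0 is the 75th percentile and each unit a doubling. Levels of different probes are not comparable with each other. The 9 arrays had between 27019 and 32309 transcripts well above background and a 75th percentile between 617.1 and 962.1 intensity units. Bio replicate 1 stood apart, with the fewest transcripts above background. On that array the 5025 transcripts that were well above background nowhere had a median level of -6.86, against -8.39 to -7.78 on the other arrays. Of the root markers, the root hair gene rth3 and the iron-phytosiderophore transporter ys1 were measured above background on all 9 arrays and the crown root regulator rtcs on 8. Markers of other tissues were not absent as a group. Of the 7 leaf probes, those of ssu1 and me3 and 1 of a pair named pep1 were above background on no array, the other pep1 probe (GRMZM2G083841) was so on 8, and the 3 probes of pyruvate phosphate dikinase (PDK1 and pdk1) on 7, 9 and 9. Of the 5 kernel probes, beta-zein was above background on none, o2 on 5, fl2 on 8, and sh2 and bt2 on 9. The part of these markers in the results was not tested. Each slide carried 1 replicate of every treatment, always with Bio, Aa and N at the same places, so that place on the slide and treatment cannot be told apart.

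A transcript was called where limma gave it a 2-fold difference or more together with an adjusted p (Benjamini-Hochberg, over all transcripts) of 0.01 or less. None of the 10 was called in the comparisons Bio vs. N, Aa vs. N or Bio vs. Aa. The same threshold called 0% of all transcripts tested in each comparison, where the smallest adjusted p-values were 0.461, 0.175 and 0.790, in the same order. An unadjusted p below 0.05 was found for 2717, 2828 and 1896 transcripts. Single arrays moved these counts: the first was 4565 without Bio replicate 2, the second 1669 without Aa replicate 2 and 1813 without N replicate 2, and the last 3589 without Bio replicate 3 and 1041 without Aa replicate 2. At that unadjusted limit, 1 of the 10 was higher and 1 lower in Bio than in N, against 3.53% and 3.51% of the 38553 transcripts tested. In Aa vs. N, 2 were higher and 1 lower, against 3.07% and 4.28% of 38453, and 0 were higher and 1 was lower in Bio than in Aa, against 3.12% and 1.79% of 38619. Without the 2 transcripts that the study had picked, the counts over the other 8 were 0 and 0 (Bio vs. N), 1 and 0 (Aa vs. N) and 0 and 1 (Bio vs. Aa). Over the 8 of the 10 that were well above background, the median log2 fold change in the 3 comparisons was 0.02, -0.21 and -0.05, beside 0.02, -0.01 and 0.05 over all transcripts. The latter include dim transcripts. Among those well above background on all 3 arrays of at least 1 treatment, the medians were -0.007, -0.014 and 0.004. The Bio vs. N and Aa vs. N comparisons share the N arrays, so that their values for a transcript are not independent of each other.

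**Figure D1:**
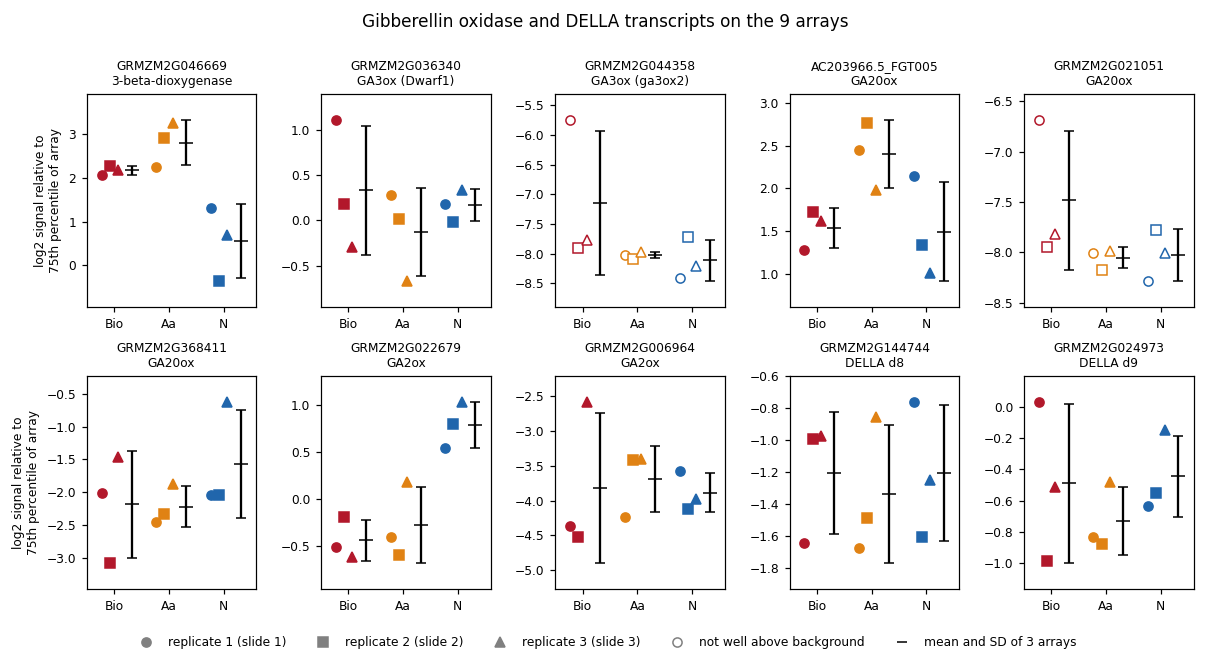
Levels of the 10 gibberellin oxidase and DELLA transcripts (log2 intensity relative to the 75th percentile of each array) in Bio, Aa and N, with 1 point per array, a shape per replicate, open points for spots not well above background and a bar for the mean and SD of 3 arrays. For GRMZM2G046669 all Bio and Aa points lie above the N points, for GRMZM2G022679 all lie below them, and for d8 and d9 the treatments overlap.

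The study annotated GRMZM2G046669 as a gibberellin 3-beta-dioxygenase, an enzyme of the last activating step, and its activity was not tested. The transcript was brighter with either organic source than with N. Its levels were 2.07, 2.26 and 2.17 in Bio replicates 1, 2 and 3, 2.25, 2.91 and 3.24 in Aa, and 1.30, -0.36 and 0.70 in N. Every Bio and Aa array was above every N array, while the Bio and Aa values overlapped. Over the whole array, the arrays did not overlap and were higher in the first treatment for 5.14% of transcripts in Bio vs. N and for 6.39% in Aa vs. N.

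The level of this transcript averaged 2.17 ± 0.10 in Bio, 2.80 ± 0.51 in Aa and 0.55 ± 0.84 in N (SD, n = 3 each), so that the N arrays varied most. The log2 fold change in limma was 1.62 (standard error 0.42, 3.07-fold, adjusted p = 0.616) in Bio vs. N and 2.25 (standard error 0.42, 4.77-fold, adjusted p = 0.374) in Aa vs. N, with unadjusted p-values of 0.00427 and 0.000545. Bio was 0.64 lower than Aa on the log2 scale, with a 95% confidence interval from -1.59 to 0.32 that included 0 and an adjusted p of 0.790.

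Each slide was also compared with itself. On slides 1, 2 and 3, GRMZM2G046669 was 0.76, 2.62 and 1.47 higher in Bio than in N on the log2 scale. The same differences for Aa and N were 0.94, 3.28 and 2.54. Since every Bio and Aa array was above every N array, these differences could only be positive, and their sign adds no evidence. Slide 2, which carried the lowest N array, gave the largest value in each comparison. Without N replicate 2 the log2 fold change was 1.16 in Bio vs. N and 1.80 in Aa vs. N. Bio was below Aa on all 3 slides, with differences of -0.18, -0.65 and -1.07.

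Dwarf1 (GRMZM2G036340), the classical maize GA3ox gene, showed no such separation. Its levels were 1.11, 0.18 and -0.29 in Bio, 0.28, 0.01 and -0.67 in Aa, and 0.19, -0.02 and 0.34 in N, and the 3 treatments overlapped. The log2 fold change was 0.16 in Bio vs. N (95% confidence interval -0.70 to 1.03), -0.30 in Aa vs. N (-1.16 to 0.57) and 0.46 in Bio vs. Aa (-0.40 to 1.32). The highest value came from Bio replicate 1, the array that stood apart, and without it the Bio vs. N value was -0.23. The intervals still include a 2-fold difference in at least 1 direction in each comparison.

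The other GA3ox gene, ga3ox2 (GRMZM2G044358), was not well above background on any array. Its spot had levels of -5.75, -7.91 and -7.78 in Bio, -8.02, -8.08 and -7.97 in Aa, and -8.41, -7.73 and -8.20 in N. No fold change is given, and whether the transcript is present at a low level was not detectable with this probe. Its brightest array was again Bio replicate 1, on which unmeasured transcripts were in general brighter.

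The GA20ox transcript AC203966.5_FGT005 was highest with free amino acids. Its levels were 1.27, 1.72 and 1.62 in Bio, 2.45, 2.77 and 1.98 in Aa, and 2.14, 1.33 and 1.01 in N. All 3 Aa arrays lay above all 3 Bio arrays, whereas the N values overlapped with both. The arrays did not overlap in the same direction, lower in Bio than in Aa, for 3.74% of all transcripts.

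In Bio vs. Aa the log2 fold change of AC203966.5_FGT005 was -0.86 (standard error 0.33, adjusted p = 0.790 in limma), and the unadjusted p was 0.0285. Aa was 0.91 above N (standard error 0.33, 1.87-fold, adjusted p = 0.579), with an unadjusted p of 0.0231. Bio and N differed by 0.04, with a 95% confidence interval from -0.70 to 0.79. Within slides 1, 2 and 3 the Bio minus Aa difference was -1.18, -1.05 and -0.36 and the Aa minus N difference 0.31, 1.44 and 0.97. Aa was thus the higher of each pair on all 3 slides, which for Bio and Aa follows from their lack of overlap. The Bio minus N difference was -0.87 on slide 1 and 0.39 and 0.61 on slides 2 and 3. This is the only one of the 8 transcripts not picked by the study that had an unadjusted p below 0.05 in any comparison.

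A second GA20ox gene, GRMZM2G368411, was dim but measured on all 9 arrays. It had levels of -2.01, -3.08 and -1.47 in Bio, -2.46, -2.33 and -1.87 in Aa, and -2.04, -2.05 and -0.62 in N. The treatments overlapped. The log2 fold change was -0.62 (standard error 0.50, adjusted p = 0.768 in limma) in Bio vs. N, -0.65 (adjusted p = 0.915) in Aa vs. N and 0.03 (95% confidence interval -1.10 to 1.17) in Bio vs. Aa. Single arrays set much of these values: without N replicate 3 they were -0.14 in Bio vs. N and -0.17 in Aa vs. N, and without Bio replicate 2 Bio vs. N was -0.17. Within slides, Aa was below N on all 3, with differences of -0.42, -0.28 and -1.25.

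The third GA20ox gene, GRMZM2G021051, was not well above background on any array, with levels from -7.95 to -6.69 in Bio, from -8.18 to -7.98 in Aa and from -8.29 to -7.78 in N. As for ga3ox2, Bio replicate 1 was its brightest array and no fold change is given. These 2 unmeasured spots were also the ones, of the 10, whose Bio arrays all lay above their Aa arrays, as did those of 8.94% of all transcripts.

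The GA2ox transcript GRMZM2G022679, which encodes a deactivating enzyme, was dimmer with either organic source than with N. Its levels were -0.51, -0.19 and -0.62 in Bio, -0.41, -0.60 and 0.18 in Aa, and 0.54, 0.80 and 1.03 in N. No Bio or Aa array reached the lowest N array, a separation downwards that 5.67% of all transcripts showed in Bio vs. N and 8.22% in Aa vs. N. Bio and Aa overlapped.

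This transcript averaged -0.44 ± 0.22 in Bio, -0.28 ± 0.41 in Aa and 0.79 ± 0.25 in N (SD, n = 3 each). The log2 fold change was -1.23 in Bio vs. N (standard error 0.25, 2.35-fold lower in Bio, adjusted p = 0.537 in limma) and -1.07 in Aa vs. N (standard error 0.25, 2.10-fold lower in Aa, adjusted p = 0.401). The unadjusted p-values were 0.00100 and 0.00241. Within slides 1, 2 and 3, the Bio minus N differences were -1.05, -0.996 and -1.65 and the Aa minus N differences -0.95, -1.40 and -0.85. As no Bio or Aa array reached the lowest N array, all of these had to be below 0, and their sign adds no evidence. Between Bio and Aa the difference was -0.16, with a 95% confidence interval from -0.73 to 0.41, which leaves out a 2-fold difference in either direction.

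The background correction, together with setting the median over all transcripts to 0, changed the size of these differences. With normexp correction of the spot signals, and with the median over all transcripts set to 0, the log2 fold change of GRMZM2G022679 was -0.54 in Bio vs. N and -0.26 in Aa vs. N, and that of GRMZM2G046669 was 2.21 and 3.06. For AC203966.5_FGT005 it was 1.04 in Bio vs. N, 2.09 in Aa vs. N and -1.06 in Bio vs. Aa. The medians subtracted were -0.35 in Bio vs. N, -0.49 in Aa vs. N and 0.16 in Bio vs. Aa, so part of each change came from that step. The signs of these 3 transcripts against N were kept, but GRMZM2G022679 no longer reached a 2-fold difference. Its unadjusted p-values in limma with normexp were 0.0625 in Bio vs. N and 0.105 in Aa vs. N.

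The other GA2ox gene, GRMZM2G006964, did not share this pattern. Its levels were -4.36, -4.52 and -2.59 in Bio, -4.23, -3.42 and -3.40 in Aa, and -3.57, -4.11 and -3.97 in N, all well above background. The log2 fold change was 0.06 in Bio vs. N (95% confidence interval -1.08 to 1.20), 0.20 in Aa vs. N (-0.94 to 1.34) and -0.14 in Bio vs. Aa (-1.28 to 1.004). Bio replicate 3 was the highest of the 9 arrays and Bio replicate 2 the lowest. Without Bio replicate 3 the Bio vs. N value was -0.55. The difference between the 2 GA2ox genes was not tested.

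**Figure D2:**
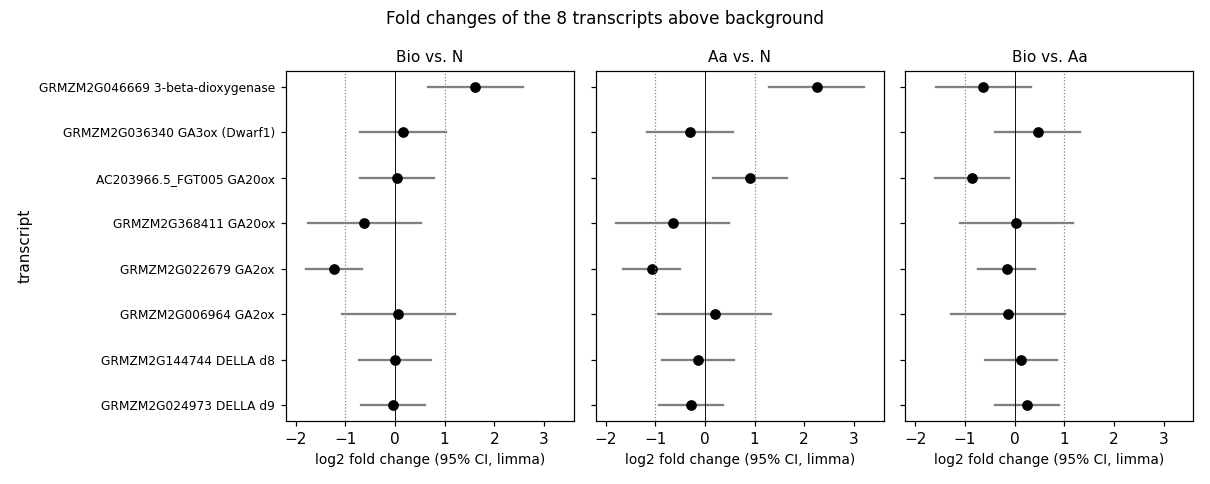
Log2 fold changes from limma with 95% confidence intervals for the 8 transcripts well above background, in each of the 3 comparisons; dotted lines mark a 2-fold difference and the solid line no difference. The intervals leave out 0 for GRMZM2G046669 and GRMZM2G022679 against N and for Aa against both N and Bio in AC203966.5_FGT005, and include it for all others.

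The DELLA genes were measured on all 9 arrays and their treatments overlapped. For d8 (GRMZM2G144744) the levels were -1.65, -0.99 and -0.97 in Bio, -1.68, -1.49 and -0.85 in Aa, and -0.76, -1.61 and -1.25 in N. The log2 fold change was 0.00 in Bio vs. N (95% confidence interval -0.72 to 0.73), -0.13 in Aa vs. N (-0.86 to 0.59) and 0.13 in Bio vs. Aa (-0.59 to 0.86). These intervals leave out a 2-fold difference in either direction but not smaller ones. The sign of the d8 value in Bio vs. N turned under other scalings. With normexp correction, those of the other comparisons turned once the median over all transcripts was set to 0, and not before.

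For d9 (GRMZM2G024973) the levels were 0.03, -0.99 and -0.51 in Bio, -0.83, -0.88 and -0.48 in Aa, and -0.63, -0.55 and -0.15 in N. The log2 fold change was -0.04 in Bio vs. N (95% confidence interval -0.69 to 0.60), -0.29 in Aa vs. N (-0.93 to 0.36) and 0.24 in Bio vs. Aa (-0.40 to 0.88). Aa was below N on each slide, with differences of -0.20, -0.33 and -0.33. With normexp correction and the median over all transcripts set to 0, both comparisons with N turned sign. The values were 0.17 in Bio and 0.14 in Aa. They are smaller in size than the medians subtracted, -0.35 and -0.49, so that before this step the signs had not turned. The probe letters were not used here, so whether the d8 and d9 spots also bind the transcript of the other gene was not tested. DELLA proteins are regulated by degradation, which these arrays do not measure.

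**Figure D3:**
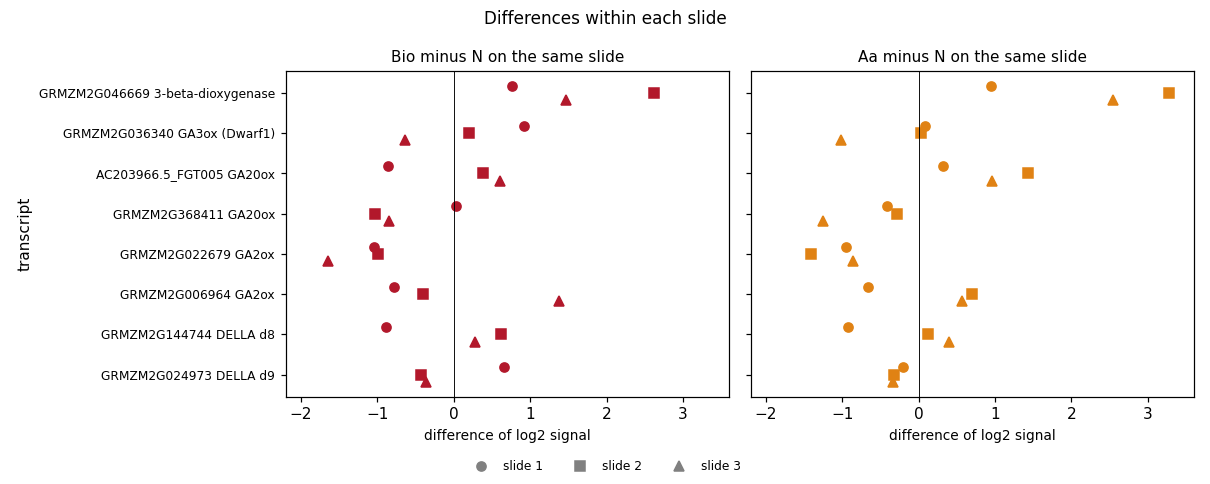
Differences in log2 intensity between Bio and N and between Aa and N on the same slide, for the 8 transcripts well above background, with a shape per slide. All 3 slides lie above 0 for GRMZM2G046669 and below 0 for GRMZM2G022679 in both comparisons, as they must where the arrays do not overlap. The slides of d8 lie on both sides.

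Replicates of these transcripts were more variable than those of most others. The pooled SD within treatments ranged from 0.30 for GRMZM2G022679 to 0.70 for GRMZM2G006964 over the 8 measured transcripts, whereas the median of the 26456 transcripts well above background on every array was 0.28. GRMZM2G022679 was close to that median, with 55.4% of these transcripts less variable. For GRMZM2G046669 the SD was 0.57, with 87.6% less variable, and for GRMZM2G368411 it was 0.69, with 92.5% less variable.

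The transcripts whose levels ran most like those of the separated pair were sought by the root mean square difference over the 9 arrays, after each of the 26456 transcripts was centred on its own mean. Closest to the 3-beta-dioxygenase were GRMZM2G068672 (0.386), annotated by the study as a homeobox-leucine zipper protein, GRMZM2G070913 (0.396), annotated as a pectinesterase, and GRMZM2G164967 (0.431), annotated as a carotenoid cleavage dioxygenase. Like GRMZM2G046669, GRMZM2G068672 was at its lowest on N replicate 2, with a level of -3.72, against -1.93 and -1.59 on the other N arrays. Closest to GRMZM2G022679 were GRMZM2G071339 (0.206), GRMZM2G174621 (0.229) and GRMZM2G125813 (0.252). These neighbours were chosen for their likeness on these arrays and carry no test.

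A further 11 gibberellin transcripts were on the list. They comprised 3 genes of the early steps of synthesis found by symbol, and 6 transcripts labelled as receptors and 2 labelled as gibberellin-regulated proteins that the study had put in its hormone table because of their values on these arrays. Their directions are therefore not independent evidence. Against N, 10 of the 11 gave a limma value, and in Bio vs. Aa all 11 did. None of those tested was called. At an unadjusted p below 0.05, 2 were higher and 3 lower in Bio than in N, against 3.53% and 3.51% of all transcripts. In Aa, 4 were higher and 4 lower than in N, against 3.07% and 4.28%, and 1 was higher and 0 lower in Bio than in Aa, against 3.12% and 1.79%. The counts against N include an2, whose value rested on 1 unmarked N array, and GRMZM2G012546 and GRMZM2G164090, several of whose spots were not well above background.

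Among the early genes, an1 (GRMZM2G081554), an ent-copalyl diphosphate synthase of gibberellin synthesis, had levels of -0.83, -0.66 and -0.55 in Bio, 0.70, -0.16 and -0.90 in Aa, and -1.43, -1.14 and -0.85 in N. The Bio arrays lay above the N arrays, as they did for 5.14% of all transcripts. In Bio vs. N the log2 fold change of an1 was 0.46 (adjusted p = 0.766 in limma). In Aa the values spread most, and the log2 fold change against N was 1.02 (unadjusted p = 0.0238, adjusted p = 0.586). The related synthase an2 (GRMZM2G044481), known in maize for defence diterpenoids, had levels of -0.66, 2.58 and 0.69 in Bio, 1.18, 0.36 and 0.99 in Aa, and 2.62, 3.51 and 2.29 in N. It was below N on all 3 slides with either source, but 3 of its 9 spots were marked as outliers, 2 of them on N arrays. In Aa vs. N its arrays did not overlap, as for 8.22% of all transcripts, so the sign on each slide was fixed there. Without the marked spots, a fit that rested on 1 N array, Bio differed from N by -2.61 on the log2 scale (adjusted p = 0.647 in limma), and with them by -1.94. In Aa vs. N it was -1.78 without the marked spots (adjusted p = 0.618) and -1.97 with them.

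For d3 (GRMZM2G093195), an ent-kaurenoic acid oxidase, the levels were 1.41, -0.31 and -0.10 in Bio, -0.21, -0.97 and -0.51 in Aa, and -0.49, -1.10 and 0.10 in N. The treatments overlapped. The highest array was once more Bio replicate 1, and the log2 fold change was 0.83 in Bio vs. N (adjusted p = 0.683 in limma), -0.07 in Aa vs. N and 0.90 in Bio vs. Aa.

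Of the 6 transcripts labelled as receptors, 4 had higher means in both organic treatments than in N. GRMZM2G034917 had levels of 0.72, 0.02 and 0.40 in Bio, 1.02, 0.72 and 0.20 in Aa, and 0.15, -0.66 and -0.77 in N. Its log2 fold change was 0.80 in Bio vs. N (adjusted p = 0.683 in limma) and 1.07 in Aa vs. N (adjusted p = 0.484). GRMZM2G301932, at -2.19, -1.72 and -0.81 in Bio, -1.93, -0.96 and -0.94 in Aa, and -2.29, -2.35 and -2.36 in N, differed from N by 0.76 and 1.06.

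GRMZM2G462883 had levels of 2.03, 1.17 and 2.28 in Bio, 2.61, 3.04 and 2.56 in Aa, and 0.93, 1.23 and 1.86 in N. Only 1 of its 3 Aa spots was unmarked. Its log2 fold change in Aa vs. N was 1.16 without the marked spots and 1.39 with them. In Bio vs. Aa it was -0.73 without them and -0.91 with them. With every spot kept, the arrays did not overlap in either of these comparisons. The same was true, in the same direction, for 6.39% of all transcripts in Aa vs. N and 3.74% in Bio vs. Aa. GRMZM2G012546 was well above background on 2 Bio arrays, 1 Aa array and 0 N arrays. Its spot had levels of -4.57, -5.60 and -4.52 in Bio, -6.28, -5.88 and -5.10 in Aa, and -7.43, -6.37 and -6.60 in N. With 6 of 9 spots not well above background, Bio replicate 1 among them, no fold change is given.

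The other 2 labelled receptors had lower means in the organic treatments, with every spot kept. GRMZM2G001977 had levels of -1.19, -1.11 and -1.65 in Bio, -0.74, -1.54 and -1.08 in Aa, and -0.31, -0.20 and -0.34 in N, without overlap with N. The arrays were separated in this direction for 5.67% of all transcripts in Bio vs. N and for 8.22% in Aa vs. N. The log2 fold change of GRMZM2G001977 was -1.04 in Bio vs. N (adjusted p = 0.576 in limma) and -0.84 in Aa vs. N (adjusted p = 0.470). GRMZM2G062019 had levels of 1.17, 1.94 and 0.17 in Bio, 1.12, 0.34 and -0.33 in Aa, and 2.03, 1.70 and 1.34 in N. Its Bio and N arrays overlapped, and on slide 2 Bio was 0.24 above N. It had all 3 of its N spots marked as outliers and gave no limma value against N. With every spot kept, it was -0.60 from N in Bio and -1.32 in Aa.

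The spots of both gibberellin-regulated proteins, small cysteine-rich peptides of a family named for its response to the hormone, were dimmer than in N on all 3 slides with either source. Except for GRMZM2G150688 in Bio vs. N, their arrays did not overlap with N, so the sign on each slide was fixed. The same separation was seen for 5.67% of all transcripts in Bio vs. N and 8.22% in Aa vs. N. GRMZM2G150688 had levels of 2.31, 2.19 and 1.18 in Bio, 1.41, 0.30 and 0.89 in Aa, and 2.97, 3.41 and 2.22 in N. Its log2 fold change was -0.98 in Bio vs. N (adjusted p = 0.683 in limma), -1.9999 in Aa vs. N (adjusted p = 0.396) and 1.02 in Bio vs. Aa (adjusted p = 0.790). GRMZM2G164090 was at -5.82, -4.18 and -5.56 in Bio, -4.53, -6.01 and -6.15 in Aa, and -3.36, -2.82 and -4.16 in N. It was well above background on 2 Bio, 1 Aa and 3 N arrays, so that no size of the difference is given.

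**Figure D4:**
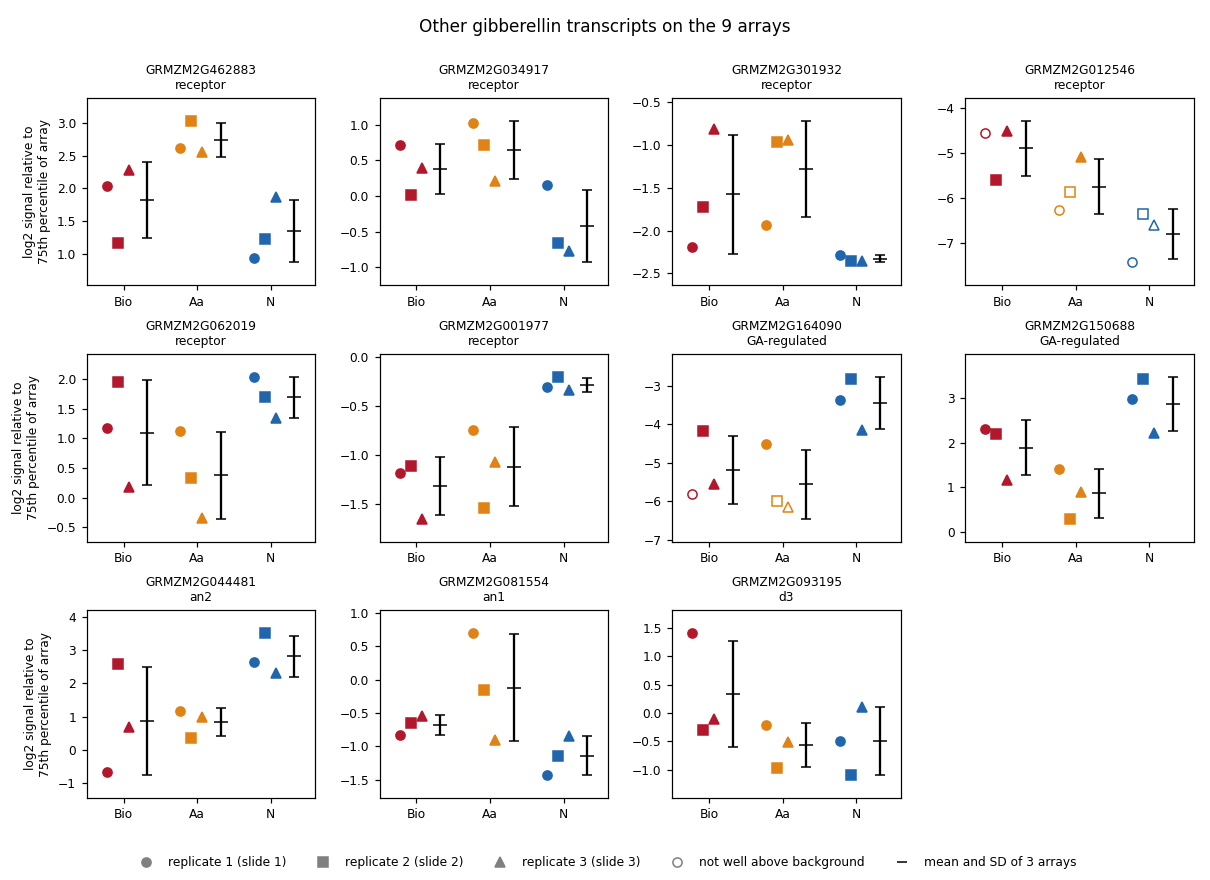
Levels of the 11 other gibberellin transcripts (log2 intensity relative to the 75th percentile of each array) in Bio, Aa and N, drawn as 1 point per array with the mean and SD of 3 arrays and open points where the spot was not well above background. The Bio and Aa points of GRMZM2G001977 and GRMZM2G164090 lie below all N points, and those of GRMZM2G301932 and GRMZM2G012546 above them, with open points among those of GRMZM2G164090 and GRMZM2G012546. Of all transcripts, 5.67% (Bio) and 8.22% (Aa) lie below N in this way and 5.14% (Bio) and 6.39% (Aa) above.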

How the data were processed

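Cy3-labelled cRNA of 9 maize root samples was hybridised to a custom Agilent array, and the deposited scanner files hold one-colour spot intensity values extracted by the authors with Agilent Feature Extraction 10.5.1.1, already background-subtracted. The probes were designed on the B73 release 5b transcripts. The authors' value table equals the deposited intensity times 1 factor per array. Here log2 intensity was taken relative to the 75th percentile of each array. Of all spots, 5.68% were marked as outliers and left out of the test, though shown in the levels; none was saturated and no spot of the 10 transcripts was marked.

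All 9 arrays entered 1 limma fit (limma 3.58.1, R 4.3.3) with treatment as the factor, p-values were adjusted over all transcripts by Benjamini-Hochberg, and the call was an adjusted p of at most 0.01 with a fold change of at least 2, the study's fold limit. The methods' t-test was an alternative, run here with p-values from the t distribution and Benjamini-Hochberg adjustment in place of the permutation p-values and Bonferroni correction that the study names, as were other scalings, background correction, spot and dim-probe filters, an intensity trend, the replicate block and leaving out each array. The script was tested on simulated data.

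Replicate numbers come from the sample titles and coincide with slides. Same-numbered arrays deviated together, with correlations of 0.17 to 0.48 over 20517 transcripts for each of the 9 pairs. Differently numbered pairs ran from -0.56 to 0.29, so that the ranges overlap. The numbers were taken to pair the samples in the within-slide differences and the replicate block. The main limma fit left this pairing out, so its standard errors, intervals and p-values are unpaired. The precision is limited by the 3 arrays per treatment.

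The transcripts and lists were chosen with earlier results of these data known. All 10 transcripts are named. So are the early synthesis genes found by symbol, the 8 further gibberellin transcripts of the study's hormone table, and the 3 transcripts most like each of the 2 members of that table. The gene table (Zm-B73-REFERENCE-NAM-5.0) was used for symbols only. Its build differs from that of the array, so no coordinates are given. It holds no descriptions, so that list genes were matched by symbol, and d5 and gid1 were not matched.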

Additional observations from a re-analysis of the deposited data

How the results depend on the processing

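Limma called 0 transcripts in each comparison under every alternative tried. The methods' t-test, with p-values from the t distribution and not from permutation, called 0 after Benjamini-Hochberg adjustment (Bonferroni was not run), and without it 102 in Bio vs. N, 225 in Aa vs. N and 57 in Bio vs. Aa, of which the GA2ox transcript GRMZM2G022679 in Bio vs. N (-1.23, unadjusted p = 0.00295) was the only one of the 8 measured transcripts. With the replicate block, which is also the slide, the adjusted p was 0.456 and 0.283 for GRMZM2G046669 against N in Bio and Aa and 0.420 and 0.300 for GRMZM2G022679, and the block changed no call; transcripts with an unadjusted p below 0.05 numbered 3749, 3870 and 2922. Normexp correction moved the median of all transcripts to -0.35, -0.49 and 0.16 and left 552, 661 and 72 at that limit; its values here are relative to those medians.

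GRMZM2G046669 and GRMZM2G022679 against N, and AC203966.5_FGT005 in Aa against N and Bio, kept their signs under all alternatives. Except for AC203966.5_FGT005 in Aa vs. N, their arrays did not overlap, so leaving out 1 array could not turn the sign. Keeping marked spots, the dim-probe filter, the intensity trend, the block and the t-test left these fold changes as they were. Leaving out 1 array each gave 1.16 to 1.997 and 1.80 to 2.63 for GRMZM2G046669 in Bio and Aa against N, and -1.36 to -1.11 and -1.30 to -0.91 for GRMZM2G022679. Signs turned only for values whose 95% confidence interval included 0, and the cause was not tested. With normexp these were GRMZM2G036340 in Aa vs. N (0.38), GRMZM2G006964 in Bio vs. Aa (0.014), d8 (GRMZM2G144744) in Aa vs. N (0.31), and in Bio vs. Aa (-0.022), and d9 (GRMZM2G024973) against N in Bio (0.17) and in Aa (0.14). All of these normexp values were smaller in size than the median subtracted. Except for GRMZM2G006964, their signs had not turned before that step. For d8 in Bio vs. N, quantile normalization gave -0.0053 and the percentile over bright probes -0.015.

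Leaving out 1 array also turned signs. In Bio vs. N the values ran from -0.23 to 0.47 for GRMZM2G036340, -0.20 to 0.37 for AC203966.5_FGT005, -0.55 to 0.41 for GRMZM2G006964, -0.20 to 0.22 for GRMZM2G144744 and -0.30 to 0.21 for GRMZM2G024973. In Bio vs. Aa they ran from -0.33 to 0.48 for GRMZM2G368411, -0.32 to 0.066 for GRMZM2G022679, -0.75 to 0.21 for GRMZM2G006964, -0.036 to 0.38 for GRMZM2G144744 and -0.018 to 0.49 for GRMZM2G024973, and in Aa vs. N from -0.38 to 0.090 for GRMZM2G144744. The 2 transcripts not well above background were left out of these counts, since no fold can be given for them.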
